A study of Homo sapiens with 4 samples.

Results

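ER stress sensors, ER-associated degradation (ERAD) genes and ER folding genes outside the heat shock families were followed in HCT116 cells, a human colorectal carcinoma line, after siRNA against the long noncoding RNA LINC00152. The 10 genes were fixed by name, not by their values: the sensors ERN1 and ATF6 with the transcription factor XBP1, the ERAD genes SYVN1, SEL1L, HERPUD1 and EDEM1, and the folding genes CALR, PDIA4 and PDIA6. All 10 were found among the 19974 gene rows of each deposited table. The cells received either a control non-targeting siRNA (si-NC) or LINC00152 siRNA (si-152), each at 100 nM for 36 h. Each group had 2 biological replicates, and RNA of each was sequenced. LINC00152 itself was not analysed here, so the size of its knockdown in these 4 libraries was not checked.

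Secretory and membrane proteins fold in the ER, and the unfolded protein response adjusts this capacity to the load. IRE1 (the product of ERN1) and ATF6 sense unfolded proteins in the ER lumen. IRE1 cuts a short intron out of the XBP1 mRNA, which yields the active XBP1 factor, while ATF6 moves to the Golgi, where proteases release its cytosolic part as a transcription factor. Both factors raise chaperones and ERAD genes, whose products carry misfolded proteins out of the ER for ubiquitination and degradation. PERK (EIF2AK3) forms the remaining arm and slows translation through eIF2alpha, with ATF4 and DDIT3 downstream.

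The response leaves marks in sequence, which are described here as background to the values below. GENCODE v29 annotates the short XBP1 intron as a gap of 26 bases in the transcript XBP1-207, at chr22:28796124-28796149 on the minus strand of GRCh38. It is shown here with 2 flanking bases on each side in lower case and the removed bases in capitals, because a value per gene does not tell transcripts with and without these bases apart.
XBP1 intron cut by IRE1: agCACTCAGACTACGTGCACCTCTGCAGca
The ER stress response element (ERSE) is the DNA element through which ATF6 and XBP1 act. It was searched as CCAAT, any 9 bases and CCACG on both strands, from 250 bases before to 50 bases after each annotated start in RefSeq (GRCh38.p14). All 10 genes had a window, 13 windows in all. The element was present in 27 of the 35116 windows of all genes (0.0769%) and in the windows of 3 of the 10 genes, XBP1, PDIA6 and CALR. With the last base free (ending in CCAC, which includes every match of the longer form) it was present in 0.316% of all windows, and HERPUD1 joined the other 3. HERPUD1 also held the related ERSE-II (ATTGG, any 1 base and CCACG, in 0.0541% of all windows). The UPRE core TGACGTGG was in 0.729% of all windows and in 0 of the 13. The matches are printed 5′ to 3′ in the orientation of the element, with the fixed letters in capitals. Of the 10 genes only XBP1, PDIA6, CALR and HERPUD1 held a match. Whether the matches bear on the values below was not tested.
XBP1 ERSE, chr22:28800603-28800621, on the strand of the gene: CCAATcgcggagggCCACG
PDIA6 ERSE, chr2:10812853-10812871, on the strand of the gene: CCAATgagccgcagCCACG
CALR ERSE, chr19:12938384-12938402, on the opposite strand: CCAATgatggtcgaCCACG
HERPUD1 ERSE with the last base free, chr16:56932059-56932076, on the strand of the gene: CCAATgggcggcagCCAC
HERPUD1 ERSE-II, chr16:56932025-56932035, on the strand of the gene: ATTGGgCCACG
A match is a description of the sequence and was not measured as a binding site here.

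The values are FPKM, fragment counts scaled by transcript length and library size, so levels can be compared between genes. Depth is unknown, since the tables hold no read counts. The summed FPKM lay between 424754 and 534311 per library. Of 7 epithelial markers, 5 (EPCAM, KRT8, KRT18, KRT19 and CDH1) were at 1 FPKM or more in every library, with a summed marker level of 3020 to 3520 FPKM in si-NC and 2380 to 2960 FPKM in si-152. This sum was lower in si-152 without overlap. Of its members KRT8 and KRT18 were lower without overlap, while KRT19, EPCAM and CDH1 overlapped between the groups. Their part in the results below was not tested. The intestinal differentiation markers CDH17 and VIL1 were under 1 FPKM in every library. Among 4 markers of other cell types, PTPRC and DCN were listed at 0 in every library, PECAM1 was near 0 and COL1A1 lay between 7.02 and 7.98 FPKM. Their sum was 7.03 to 7.98 FPKM in si-NC and 7.12 to 7.75 FPKM in si-152.

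The 10 genes spanned more than 2 orders of magnitude in level, from a mean of 1.65 FPKM for ERN1 to 405 FPKM for CALR. In descending order of the mean over the 4 libraries they were CALR, PDIA6, PDIA4, XBP1, HERPUD1, SYVN1, SEL1L, ATF6, EDEM1 and ERN1. The ranges of PDIA4 and XBP1 over the libraries overlapped, as did those of SYVN1 and SEL1L and those of ATF6 and EDEM1, while every other pair of neighbours was separate. The folding enzymes and XBP1 stood in the upper part of the 11222 tested genes, with CALR at percentile 98.6, PDIA6 at 96.3, and XBP1 and PDIA4 both at 94.8. The sensors were much lower, with ATF6 at percentile 51.0 and ERN1 at 7.07. The summed level of the 10 genes was 953 and 894 FPKM in the si-NC libraries, against 829 and 952 FPKM in the si-152 libraries, so the groups overlapped.

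**Figure D1:**
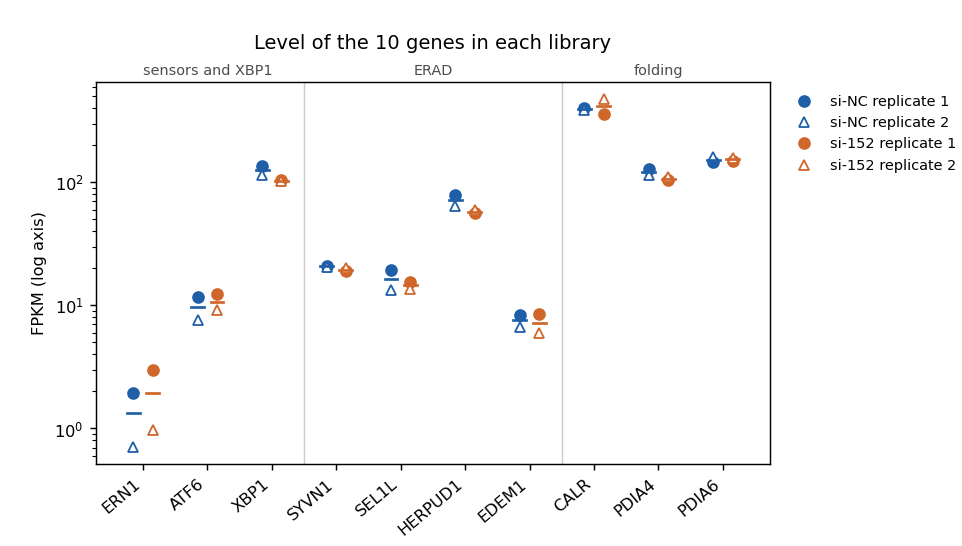
FPKM of the 10 genes on a log axis, with 1 point for each library (circles, replicate 1; open triangles, replicate 2), a bar at the mean of each group (n = 2), si-NC in blue and si-152 in orange. CALR is highest at 357 to 473 FPKM and ERN1 lowest at 0.711 to 2.96 FPKM. For ERN1, ATF6, SEL1L, EDEM1 and, by little in si-152, XBP1, the replicate 1 circles sit above the replicate 2 triangles in both groups.

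For each gene, si-152 was compared with si-NC on log2(FPKM + 1) by limma, fitted over the 11222 genes that reached 1 FPKM in 2 or more of the libraries. All 10 genes were tested. None had an adjusted p under 0.05, and 0 of 10 had an unadjusted p under 0.05 by limma. Among all tested genes, 0.0178% (2 genes) passed the first threshold and 4.38% the second. The unadjusted p-values of the 10 genes ran from 0.116 for HERPUD1 to 0.990 for PDIA6, and each adjusted p was 1.0 after rounding. The median log2 difference of the 10 genes was -0.083, with a median of 0.019 over all tested genes, and 6 were lower and 4 higher. Among all tested genes 5137 were lower and 6085 higher. In 4 of the 10 genes the si-152 libraries lay wholly below the si-NC libraries, a pattern found in 13.9% of all tested genes, and in 0 of 10 they lay wholly above, against 16.5%. In either direction, groups that do not overlap were found in 30.4% of tested genes. With size factors 3 of the 10 genes lay wholly below, and with quantile normalization 2 did and 1 (CALR) lay wholly above. In either direction, 31.6% of tested genes did not overlap with size factors and 34.0% with quantile normalization. These 10 genes were chosen with earlier results of the same libraries known, so these shares are given as a description. In such bulk libraries, a lower level in every cell and fewer cells with a high level cannot be told apart.

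In the 2 pairs of libraries that share a replicate number, 6 of the 10 genes differed in the same direction, close to the 63.0% of all tested genes that did so. XBP1, HERPUD1, SYVN1 and PDIA4 were lower in both pairs, as 27.3% of tested genes were. ERN1 and ATF6 were higher in both, as 35.6% of tested genes were. The median difference of the 10 genes was -0.15 in pair 1 and -0.052 in pair 2, while that of all tested genes was -0.031 and 0.073. For HERPUD1, XBP1, SYVN1 and PDIA4 the difference was larger in size in pair 1 than in pair 2, except that SYVN1 was at -0.089 and -0.13 with size factors and at -0.081 and -0.10 with quantile normalization.

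**Figure D2:**
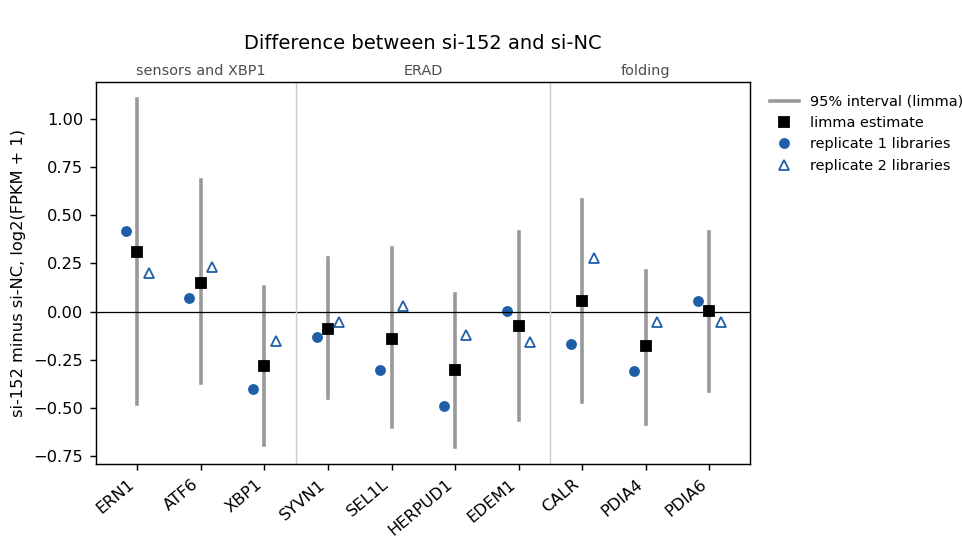
Difference between si-152 and si-NC on log2(FPKM + 1) for each of the 10 genes: black squares, limma estimate; grey lines, its 95% interval; blue circles and open triangles, the difference within the replicate 1 and replicate 2 libraries. Every interval includes 0, and the 4 ERAD genes all have estimates below 0, from -0.30 for HERPUD1 to -0.076 for EDEM1.

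XBP1 (ENSG00000100219), the factor that IRE1 activates by splicing, occupies chr22:28794555-28800597 of GRCh38, on the minus strand. Its level was 137 and 114 FPKM in si-NC (126 ± 16.6, SD, n = 2) and 104 and 102 FPKM in si-152 (103 ± 0.974, SD, n = 2). Both si-152 libraries were below both si-NC libraries, and the gap between the si-NC replicates was larger than the distance from the lower si-NC library to either si-152 library. The log2 difference was -0.28 (standard error 0.18), with a 95% interval from -0.69 to 0.13, which is a fold of 0.622 to 1.10 on this scale. Without si-NC replicate 1, the highest XBP1 library, it was -0.14, and with quantile normalization the XBP1 groups overlapped. Within the pairs the XBP1 level in si-152 was 0.756 and 0.899 of that in si-NC. XBP1 had no exonic overlap with another GENCODE gene.

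ERN1, the IRE1 sensor itself, occupies chr17:64039142-64130819 on the minus strand. It measured 1.95 and 0.711 FPKM in the si-NC libraries, against 2.96 and 0.966 FPKM in the si-152 libraries. The replicate 1 library was 2.75 times the replicate 2 library in si-NC and 3.06 times in si-152, so the groups overlapped widely and the libraries separated by replicate number. The log2 difference of ERN1 was 0.31 (standard error 0.35), with an interval from -0.48 to 1.10. Within the same-numbered pairs ERN1 was higher in si-152 both times, by 0.42 and 0.20. Dropping 1 library leaves the replicate numbers unequal between the groups, so the gap between them enters the estimate. The difference of ERN1 was then 0.70 without si-NC replicate 1 and 0.82 without si-152 replicate 2. It was -0.083 without si-NC replicate 2 and -0.19 without si-152 replicate 1. The values of 0.70 and 0.82 passed an unadjusted p of 0.05 by limma, while their adjusted p was 0.634 and 0.435. At this level a pseudocount of 1 also shrinks the change, and within the pairs the plain FPKM ratio was 1.51 and 1.36.

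ATF6 (chr1:161766294-161964070, plus strand) measured 11.7 and 7.62 FPKM in the si-NC libraries, against 12.3 and 9.11 FPKM in the si-152 libraries. Again both replicate 1 libraries were above both replicate 2 libraries. The log2 difference of ATF6 was 0.15 (standard error 0.23), with an interval from -0.37 to 0.68, and it turned to -0.13 without si-NC replicate 2 and to -0.047 without si-152 replicate 1. Relative to ATF6, XBP1 was lower in si-152 in both pairs, where the log2 ratio of their FPKM differed by -0.48 and -0.41. The si-152 ratios, at most 11.2, were below the si-NC ratios, at least 11.8, by little at their nearest, and the ratio was not tested. The ratio of XBP1 to ERN1 was also lower in si-152 in both pairs, but its groups overlapped. It was 70.3 and 160 in si-NC and 35.1 and 106 in si-152.

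The ERAD genes form one machine at the ER membrane. SYVN1 encodes HRD1, the ubiquitin ligase, SEL1L encodes its partner that stabilises the ligase and recruits substrates, HERPUD1 encodes a stress-induced protein that assembles with the ligase, and EDEM1 encodes a protein that directs misfolded glycoproteins to degradation. All 4 had estimates below 0 and did so without rescaling, with size factors and with quantile normalization, but none passed the test. Without si-NC replicate 1 the estimates of the 4 genes split into 2 above and 2 below 0. Other ERAD genes, given with the wider list below, went in both directions. HERPUD1 had the lowest estimate of the 10 genes. It occupies chr16:56932048-56944863 on the plus strand and was at 79.1 and 64.4 FPKM in si-NC (71.7 ± 10.4, SD, n = 2) and at 55.9 and 59.3 FPKM in si-152 (57.6 ± 2.44, SD, n = 2). The si-152 libraries were both below the si-NC libraries. The log2 difference of HERPUD1 was -0.30 (standard error 0.18), with an interval from -0.70 to 0.091, a fold of 0.615 to 1.07. It was -0.49 and -0.12 in the pairs, and -0.16 without si-NC replicate 1.

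SYVN1 was the most even of the 10 genes, at 20.8 and 20.7 FPKM in si-NC (SD 0.0539, n = 2) and 19.0 and 20.0 FPKM in si-152 (SD 0.703, n = 2). Its groups did not overlap, although the log2 difference was only -0.089 (standard error 0.16), with an interval from -0.45 to 0.28. It was -0.054 without si-152 replicate 1. With size factors in place of the deposited scale the SYVN1 groups overlapped. The gene occupies chr11:65121780-65134533 on the minus strand, and 554 of its 5496 exonic bases are shared with FAU, MRPL49 and MIR6751 in GENCODE v29, so part of its signal cannot be assigned with certainty. Whether the authors' counting used the strand is not stated, which also bears on the genes with antisense overlaps below.

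SEL1L (chr14:81471549-81533861, minus strand) measured 19.5 and 13.4 FPKM in the si-NC libraries, against 15.6 and 13.7 FPKM in the si-152 libraries, and the groups overlapped. Its log2 difference was -0.14 (standard error 0.21) and became 0.12 without si-NC replicate 1, the highest SEL1L library. The ratio of SEL1L to its partner SYVN1 was 0.936 and 0.648 in si-NC and 0.823 and 0.688 in si-152, so both si-152 ratios fell between the si-NC ratios. EDEM1 (chr3:5187646-5219957, plus strand, with 653 exonic bases shared with an antisense gene) measured 8.41 and 6.74 FPKM in the si-NC libraries, against 8.44 and 5.94 FPKM in the si-152 libraries. The EDEM1 groups overlapped completely, with a log2 difference of -0.076 (standard error 0.22), which turned to 0.064 without si-NC replicate 1 and to 0.15 without si-152 replicate 2.

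The folding genes included the most abundant of the set. CALR encodes calreticulin, a calcium-binding chaperone that holds newly made glycoproteins by their sugar. It was at 401 and 389 FPKM in si-NC (395 ± 8.78, SD, n = 2) and 357 and 473 FPKM in si-152 (415 ± 82.2, SD, n = 2). The si-152 libraries lay on either side of both si-NC libraries, and the pairs went in opposite directions, at -0.17 and 0.28. The log2 difference of CALR was 0.057 (standard error 0.23), with an interval from -0.47 to 0.58, and was -0.15 without si-152 replicate 2. With quantile normalization both si-152 libraries were above both si-NC libraries for CALR, with a difference of 0.21. The gene occupies chr19:12938578-12944489 on the plus strand and shares 270 exonic bases with an antisense gene.

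PDIA4 and PDIA6 encode protein disulfide isomerases, which form and rearrange disulfide bonds in the ER. PDIA4 (chr7:149003062-149028641, minus strand) measured 128 and 115 FPKM in the si-NC libraries, against 104 and 111 FPKM in the si-152 libraries, with both si-152 libraries below both si-NC libraries. Its log2 difference was -0.18 (standard error 0.18), with an interval from -0.58 to 0.21. It was -0.10 without si-NC replicate 1, and with quantile normalization the PDIA4 groups overlapped. PDIA6 (chr2:10783391-10837977, minus strand) measured 145 and 162 FPKM in the si-NC libraries, against 150 and 157 FPKM in the si-152 libraries, so both si-152 libraries fell between the si-NC libraries. Its log2 difference was 0.0023 (standard error 0.18), with an interval from -0.41 to 0.41, a fold of 0.753 to 1.33. The sign of so small a value changed with size factors (-0.017), and 1033 of the 4101 exonic bases of PDIA6 are shared with ATP6V1C2 on the opposite strand. Within a library, the PDIA4 to PDIA6 ratio was 0.888 and 0.708 in si-NC and 0.689 and 0.706 in si-152, so si-NC replicate 1 stood apart and the other 3 libraries were close to each other.

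The gap between replicate numbers was compared with the gap between groups for each gene. In 6 of the 10 genes (ERN1, ATF6, SEL1L, EDEM1, PDIA6 and CALR) the mean difference between replicate 1 and replicate 2 was larger in size than the difference between si-152 and si-NC, close to the 63.1% of all tested genes. Both replicate 1 libraries were above both replicate 2 libraries in ERN1, ATF6, SEL1L and EDEM1, which is 4 of 10 genes against 33.6% of all tested genes. The difference by replicate number was 0.90 for ERN1, 0.48 for ATF6, 0.36 for EDEM1 and 0.34 for SEL1L on log2(FPKM + 1). For XBP1, HERPUD1, SYVN1 and PDIA4 it was smaller than the group difference, between -0.033 and 0.14. These are the same 4 genes whose groups did not overlap. With 2 libraries a group, groups that do not overlap always have the larger group difference, so this match is no separate result.

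**Figure D3:**
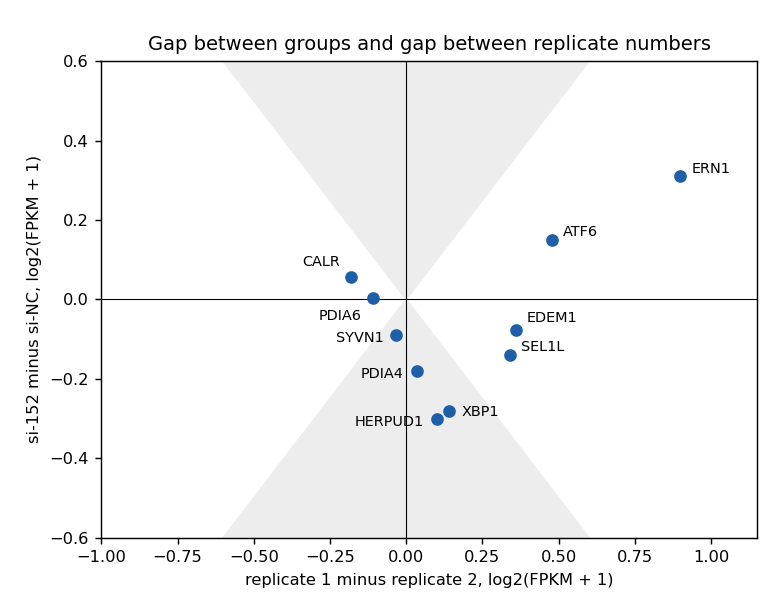
Each of the 10 genes by its difference between replicate 1 and replicate 2 (x axis) and between si-152 and si-NC (y axis), both means over 2 libraries on log2(FPKM + 1). Grey marks the area where the group difference is larger in size, and it holds XBP1, HERPUD1, SYVN1 and PDIA4. ERN1 and ATF6 lie far to the right, at 0.90 and 0.48.

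Around these genes, a wider list of 87 other unfolded protein response, ERAD, ER folding and translocon genes was examined, of which 84 were tested. By limma, 2 of the 84 had an unadjusted p under 0.05, against 4.38% of all tested genes. Both were higher in si-152 (1.89% of all tested genes were called in that direction), and 0 of the 84 had an adjusted p under 0.05. The median log2 difference of the 84 genes was -0.059. Of all tested genes 6085 were higher and 5137 lower, and of the 84 genes 33 were higher and 51 lower. With size factors, 26 were higher and 58 lower, and with quantile normalization 37 and 47. Without si-NC replicate 1 the split was 41 and 43, with a median of -0.021, and without si-152 replicate 1 the median was -0.019. Without si-152 replicate 2 it was -0.10. The genes at an unadjusted p under 0.05 were GANAB and ATF6B. Of these, ATF6B met the filter only through the si-152 libraries, where it was high, so its p-value supports nothing further, and with 1 FPKM required in every library it was not tested and the count was 1. GANAB encodes the catalytic subunit of glucosidase II, which trims the sugar that calreticulin and calnexin bind. It measured 59.1 and 62.7 FPKM in the si-NC libraries, against 143 and 127 FPKM in the si-152 libraries. The si-152 libraries were thus well above the si-NC libraries, with a log2 difference of 1.13 (standard error 0.17). Its adjusted p by limma was 0.176. ATF6B, which encodes a relative of ATF6, measured 0.169 and 0.363 FPKM in the si-NC libraries, against 1.88 and 1.58 FPKM in the si-152 libraries. Its log2 difference, 1.11 (standard error 0.21), became 2.37 with a pseudocount of 0.1, and its adjusted p by limma was 0.315. ATF6B shares 360 of its 3629 exonic bases with TNXB and a further gene.

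In the PERK arm, 5 of the 7 genes tested had estimates below 0 (3 of 7 with quantile normalization) and none was called. EIF2AK3, the sensor, measured 6.80 and 4.80 FPKM in the si-NC libraries, against 4.90 and 3.66 FPKM in the si-152 libraries, with a log2 difference of -0.36 (standard error 0.22). Its difference was -0.57 without si-NC replicate 2, which passed an unadjusted p of 0.05 by limma, but -0.15 without si-NC replicate 1 and -0.19 without si-152 replicate 2, which did not. ATF4, the factor translated when eIF2alpha is phosphorylated, measured 571 and 711 FPKM in the si-NC libraries, against 437 and 575 FPKM in the si-152 libraries (log2 difference -0.35, standard error 0.26). Without rescaling the groups of both genes overlapped, for EIF2AK3 by little (4.90 FPKM in si-152 replicate 1 against 4.80 FPKM in si-NC replicate 2). With size factors the si-152 libraries lay wholly below the si-NC libraries for EIF2AK3. DDIT3, which encodes the factor CHOP, had a log2 difference of -0.065 (standard error 0.19). PPP1R15A, a phosphatase subunit that reverses the PERK signal, had one of 0.073 (standard error 0.20). Without rescaling, only TRIB3 of the 7 had groups that did not overlap, higher in si-152 as in 16.5% of tested genes. It measured 158 and 167 FPKM in the si-NC libraries, against 201 and 219 FPKM in the si-152 libraries. The log2 difference of TRIB3 was 0.37 (standard error 0.19). With size factors and with quantile normalization, 2 of the 7 also lay wholly below.

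Of the 8 ER chaperones in the heat shock families, 7 had estimates below 0 (5 of 8 with quantile normalization), with a median of -0.22, and none was called. By pair the median was -0.42 and 0.056, with 3 of the 8 genes lower in both. It was -0.053 without si-NC replicate 1 and -0.046 without si-152 replicate 1, with 5 of 8 genes below 0 each time. HSPA5 encodes BiP, the main ER chaperone, and measured 1300 and 1180 FPKM in the si-NC libraries, against 956 and 1110 FPKM in the si-152 libraries, with a log2 difference of -0.26 (standard error 0.29). HSP90B1 had a log2 difference of -0.091 (standard error 0.24) and overlapped between groups. In the remaining groups no other gene was called. Among 13 translocon and signal peptidase genes 11 had estimates below 0 (9 with quantile normalization, and 7 without si-NC replicate 2), led in level by SEC61G at -0.27 (standard error 0.28). Among 12 other ER folding and stress targets 10 did (8 with quantile normalization, and 7 without si-152 replicate 1). The most abundant of the 12, the proline isomerase PPIB, was at -0.14 (standard error 0.32), and the lowest estimate was that of MANF at -0.45 (standard error 0.22). Of the 6 glycoprotein folding genes, 5 had estimates above 0 (4 to 6 with 1 library dropped), among them GANAB and the lectin chaperone CANX at 0.036 (standard error 0.24). In the PDI family P4HB, its most abundant member, was at 0.18 (standard error 0.25), and 6 of 13 genes were above 0 (4 with quantile normalization). The most abundant genes of the ERAD roles in the wider list were AUP1 (ubiquitin ligases and channel), OS9 (lectins) and VIMP (extraction). Their log2 differences were 0.27, 0.036 and -0.12. Estimates were above 0 in 5 of 12 ligase and channel genes, 2 of 5 lectin and mannosidase genes and 3 of 8 extraction genes. Of the 8 ATF6 and IRE1 arm regulators tested, 6 had estimates above 0, ATF6B among them, with a median of 0.14. This count was 4 without si-NC replicate 2 and 4 without si-152 replicate 1. The most abundant of the 8, the site-1 protease gene MBTPS1, which cuts ATF6 in the Golgi, was at -0.25 (standard error 0.16).

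**Figure D4:**
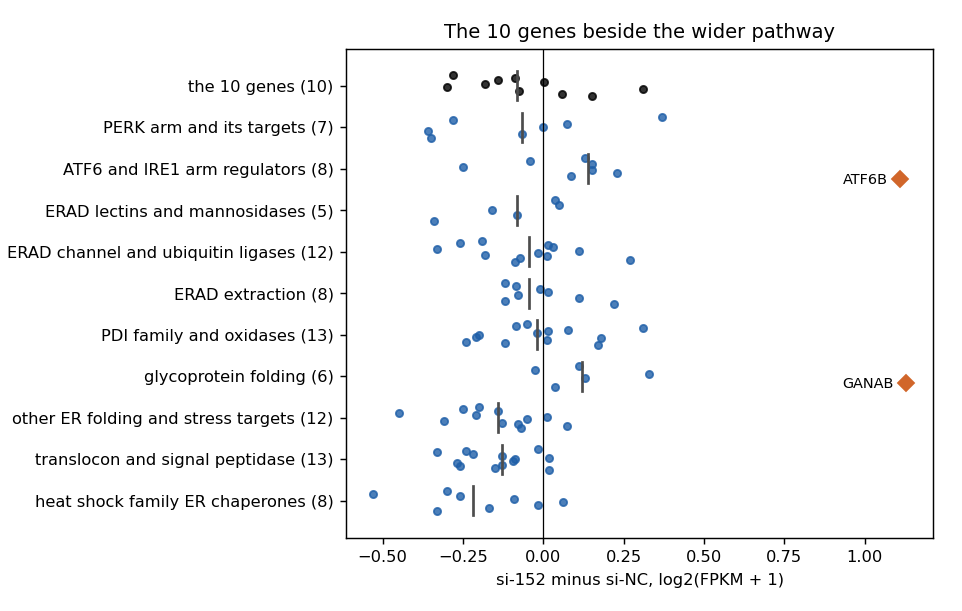
Log2 difference between si-152 and si-NC for the 10 genes (black) and for the wider pathway by role (blue), with 1 point for each tested gene, the number tested in brackets and a grey bar at the median. Orange diamonds mark the 2 genes at an unadjusted p under 0.05, GANAB (1.13) and ATF6B (1.11), the latter tested only because both si-152 libraries reached 1 FPKM. The 10 genes lie between -0.30 and 0.31.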

How the data were processed

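RNA of HCT116 cells was sequenced in 4 libraries, which were grouped and numbered as labelled. The authors deposited 1 FPKM value per gene symbol and library. No file header gives the unit, which was inferred from decimals and differing sums. The submitters' processing notes name Trimmomatic, TopHat, HISAT2, HTSeq and DESeq and the build GRCh38, and the annotation is not given in the sources used here. Repeated symbols (2) and symbols that read as dates (28) were kept.

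Without rescaling, log2(FPKM + 1) of the 11222 genes that reached 1 FPKM in 2 or more libraries was tested with limma (version 3.58.1, R 4.3.3). The variance followed a trend with the mean, and p-values were adjusted by Benjamini-Hochberg over all these genes. FPKM values are not counts, so the study's count test was not used, and no counting error is given. Each p-value sets the group difference against the spread between 2 cultures a group, with variance information shared across all tested genes. Replicate numbers were not in this fit, so a gap between them counts as spread.

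The genes, lists and thresholds were chosen with earlier results of these data known. Named beside the 10 genes were EIF2AK3, ATF4, DDIT3, PPP1R15A, HSPA5, HSP90B1, each listed gene at an unadjusted p under 0.05, and the most abundant gene of each role. TRIB3 was added later because its groups did not overlap. MANF, also outside this rule, was named for the lowest estimate of its role. Coordinates came from GENCODE v29 and promoter windows from RefSeq. Alternatives were another pseudocount (0.1), 2 other filters, 2 scalings, no variance trend, the replicate number as a block and each library left out.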

Additional observations from a re-analysis of the deposited data

How the results depend on the processing

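Both groups carry the same replicate numbers, and no label says that a number marks a shared culture or day. After the group means were removed, libraries with the same number correlated at 0.52 across genes. With the replicate block, 2 of the 10 genes, XBP1 (adjusted p = 0.279) and HERPUD1 (adjusted p = 0.267), had an unadjusted limma p under 0.05. So did 1893 of all tested genes (16.9%) and 17 of the wider list, GANAB, ATF6B, EIF2AK3, ATF4, MBTPS1 and AUP1 among them. At an adjusted p under 0.05 there were 78 of all tested genes. The adjusted count was 1 with a pseudocount of 0.1, with no filter, with size factors, with quantile normalization and with no variance trend, and 0 with at least 1 FPKM in every library, where ERN1 was not tested. With no filter 796 genes had an unadjusted p under 0.05. In the wider list 1 gene did when every library had to reach 1 FPKM, and 6 with quantile normalization.

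PDIA6 turned to -0.017 with size factors, and with quantile normalization DDIT3 turned to 0.017, HSP90B1 to 0.066 and PPIB to 0.011. When 1 library at a time was dropped, the lone library of a group was assumed to vary like the other group. The replicate numbers were also unequal between the groups, so a gap between replicate numbers can enter these differences. The number called was then 0 to 1 of the 10 genes (ERN1), 2 to 6 of the wider list, 310 to 724 of all genes unadjusted and 45 to 78 adjusted. With 1 library against 2, groups did not overlap in 6 to 8 of the 10 genes and in 56.0% to 73.3% of all tested genes, and the median difference of the 10 genes was -0.17 to -0.0082. The number moving the same way in both pairs could not be given. Differences that changed sign ranged from -0.19 to 0.82 for ERN1, -0.13 to 0.43 for ATF6, -0.39 to 0.12 for SEL1L, -0.30 to 0.15 for EDEM1, -0.081 to 0.086 for PDIA6 and -0.15 to 0.26 for CALR. In the wider list they ranged from -0.22 to 0.092 for DDIT3, -0.11 to 0.25 for PPP1R15A, -0.21 to 0.027 for HSP90B1, -0.10 to 0.18 for OS9, -0.21 to 0.28 for CANX, -0.43 to 0.15 for PPIB and -0.63 to 0.091 for SEC61G. XBP1, HERPUD1, SYVN1 and PDIA4 were lower under every alternative run. Since their groups did not overlap, only the 2 scalings could have changed this sign. The causes of these shifts were not tested. The deposited tables give no read counts, so the counting error behind each value is unknown.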
